A study of Homo sapiens with 4 samples.

Results

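The mRNA levels of 10 core circadian clock genes were followed in 4 libraries of HepG2, a human liver cancer cell line. The genes were chosen by symbol as *ARNTL*, *CLOCK*, *PER1*, *PER2*, *PER3*, *CRY1*, *CRY2*, *NR1D1*, *NR1D2* and *DBP*. All 10 were found, each listed once, among the 24462 genes of the deposited counts. One library came from cells given DMSO, one from cells given PD0332991 (labelled PD-0332991), an inhibitor of the kinases CDK4 and CDK6, one from cells transfected with a scrambled siRNA control, and one from cells transfected with siCDK4 and siCDK6 (CDK4/6 KD). The 4 cultures shared the cell line and its medium with serum, and the dose of PD0332991, the exposure times, the hour of harvest and any synchronisation of the cells sequenced are not given in the sources used here. With 1 library per condition, no difference had a replicate check, no test was run and no p-value was computed.

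The mammalian clock is a transcriptional loop. The proteins of *CLOCK* and *ARNTL* (also called BMAL1) form a dimer that binds E-box sequences and switches on the PER and CRY genes, whose products return to the nucleus and block that dimer. In a second loop the same dimer drives *NR1D1* and *NR1D2*, which encode the REV-ERB receptors, repressors of *ARNTL*, while the ROR receptors act on the same sites as activators. *DBP* encodes an output factor that binds D-box sequences. In liver these genes set daily rhythms of lipid, glucose and bile acid metabolism, and in a culture that has not been synchronised the phases of single cells average out.

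Because the members are known for the promoter sequences they share, the windows of the REV-ERB and PER genes with the largest differences between libraries, and of the closest paralogue of each, are printed first. Each starts 250 bases before the annotated gene start and ends 10 bases after it (RefSeq, GRCh38.p14). Letters are written 5′ to 3′ on the strand of the gene, and capitals mark matches, on either strand, to the E-box CACGTG, its variant CACGTT, the ROR/REV-ERB half-site AGGTCA or the D-box TTANGTAA.
NR1D2 promoter, chr3:23945871-23946130, plus strand: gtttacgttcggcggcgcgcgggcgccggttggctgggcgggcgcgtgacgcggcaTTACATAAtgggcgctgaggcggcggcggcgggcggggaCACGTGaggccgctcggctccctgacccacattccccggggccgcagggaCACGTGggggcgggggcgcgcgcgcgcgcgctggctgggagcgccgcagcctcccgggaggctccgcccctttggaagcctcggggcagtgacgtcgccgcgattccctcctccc
NR1D1 promoter, chr17:40100580-40100839, minus strand: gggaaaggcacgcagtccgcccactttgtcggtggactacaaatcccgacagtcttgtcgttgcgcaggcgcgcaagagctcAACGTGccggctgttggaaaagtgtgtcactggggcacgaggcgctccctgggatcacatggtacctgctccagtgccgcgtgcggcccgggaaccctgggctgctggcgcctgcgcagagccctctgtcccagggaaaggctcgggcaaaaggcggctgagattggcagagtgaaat
PER2 promoter, chr2:238288601-238288860, minus strand: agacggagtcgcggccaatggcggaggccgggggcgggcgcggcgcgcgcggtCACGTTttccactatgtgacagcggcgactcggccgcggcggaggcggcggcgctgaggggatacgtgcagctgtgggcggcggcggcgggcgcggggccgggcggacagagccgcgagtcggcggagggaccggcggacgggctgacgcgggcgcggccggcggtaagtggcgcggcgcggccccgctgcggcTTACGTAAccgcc
PER1 promoter, chr17:8152395-8152654, minus strand: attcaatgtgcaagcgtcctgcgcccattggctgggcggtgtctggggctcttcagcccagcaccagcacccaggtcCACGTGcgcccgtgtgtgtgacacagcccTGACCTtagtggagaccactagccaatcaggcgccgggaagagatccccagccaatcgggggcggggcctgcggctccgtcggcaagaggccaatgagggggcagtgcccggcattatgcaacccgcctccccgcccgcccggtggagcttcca
The window printed for *NR1D2* is that of the second of its pair of annotated starts. It held 2 E-boxes, beginning 155 and 105 bases before that start, and a D-box at 194 bases. The window of the first *NR1D2* start, which is not printed, held no match to any of the motifs. The *PER2* window held an E-box variant at 197 bases and a D-box across the gene start, *PER1* an E-box at 173 bases and a half-site at 144 bases, and *NR1D1* an E-box variant at 168 bases. Over the 15 windows of 300 bases that the promoter table holds for the 10 genes, the E-box was found in 2, the variant in 5, the half-site in 4 and the D-box in 3. Of all 35116 windows of that length, 7.26%, 5.34%, 13.8% and 2.18% held them. The motifs were picked because they are known from clock genes, so these counts describe the windows and are not evidence of binding. No motif of the 4 was found in the window of *DBP*.

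**Figure D1:**
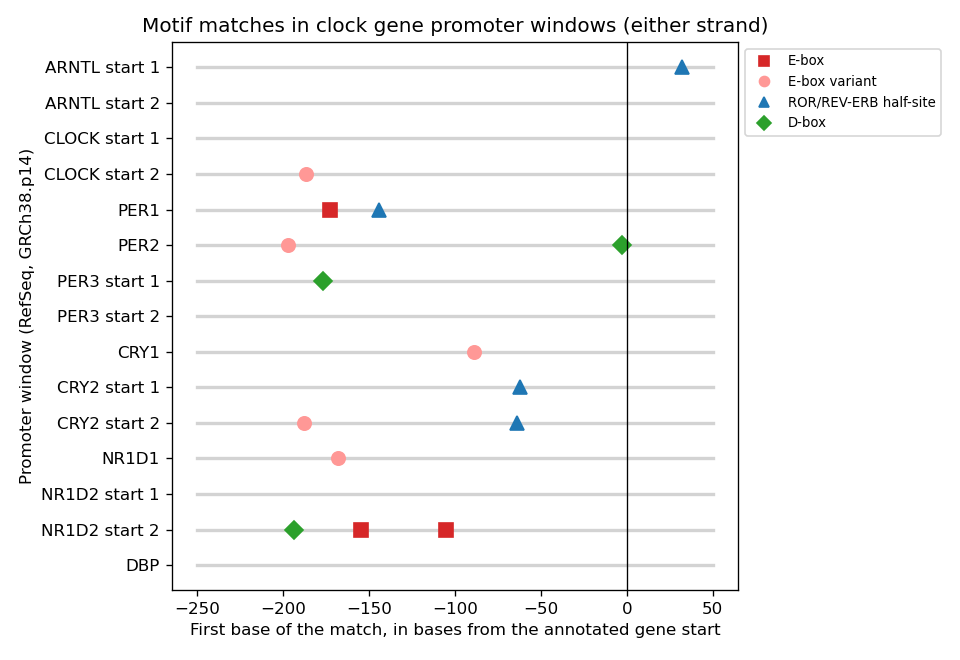
Matches to the 4 motifs in the promoter windows of the 10 clock genes, 1 line per annotated start, with the first base of each match on the horizontal axis in bases from the gene start. *NR1D2* start 2 carries both E-boxes of that gene, and *DBP* carries no match.

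The library totals ran from 8983848 to 11176880 reads, of which the 10 clock genes together took between 1154 and 1652. Values are counts per 1e+06 reads (CPM) after TMM scaling of the library size, each with an exact 95% Poisson interval where one is given. Fold changes carry an exact 95% interval (Clopper-Pearson), set by how a gene's reads divided between the libraries compared. These intervals cover counting error only. The siRNA targets were lower in the library labelled CDK4/6 KD, *CDK4* with 2754 reads in DMSO, 2344 in PD0332991, 3789 in scrambled siRNA but 814 in CDK4/6 KD, at 0.203 of its control level, and *CDK6* with 4707, 4361, 5734 and 1464, at 0.241. All 10 hepatocyte markers examined were detected in all 4 libraries, *CD3E* was at 0 throughout and *PTPRC* had at most 2 reads. The keratinocyte genes *KRT5*, *KRT14* and *KRT6A* and the fibroblast gene *COL1A1* did vary. In DMSO, PD0332991, scrambled siRNA and CDK4/6 KD, in that order, *KRT5* had 2, 113, 13 and 43 reads, *KRT14* 9, 249, 31 and 74, and *KRT6A* 9, 150, 37 and 28. The sum over 6 keratinocyte markers, 627, 1220, 596 and 1134 reads, was mostly *KRT10* (606, 701, 514 and 986), and *TP63*, which defines basal keratinocytes, had at most 1 read. The 5 fibroblast markers summed to 439, 710, 92 and 257 reads. Their part in the results was not tested.

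**Figure D2:**
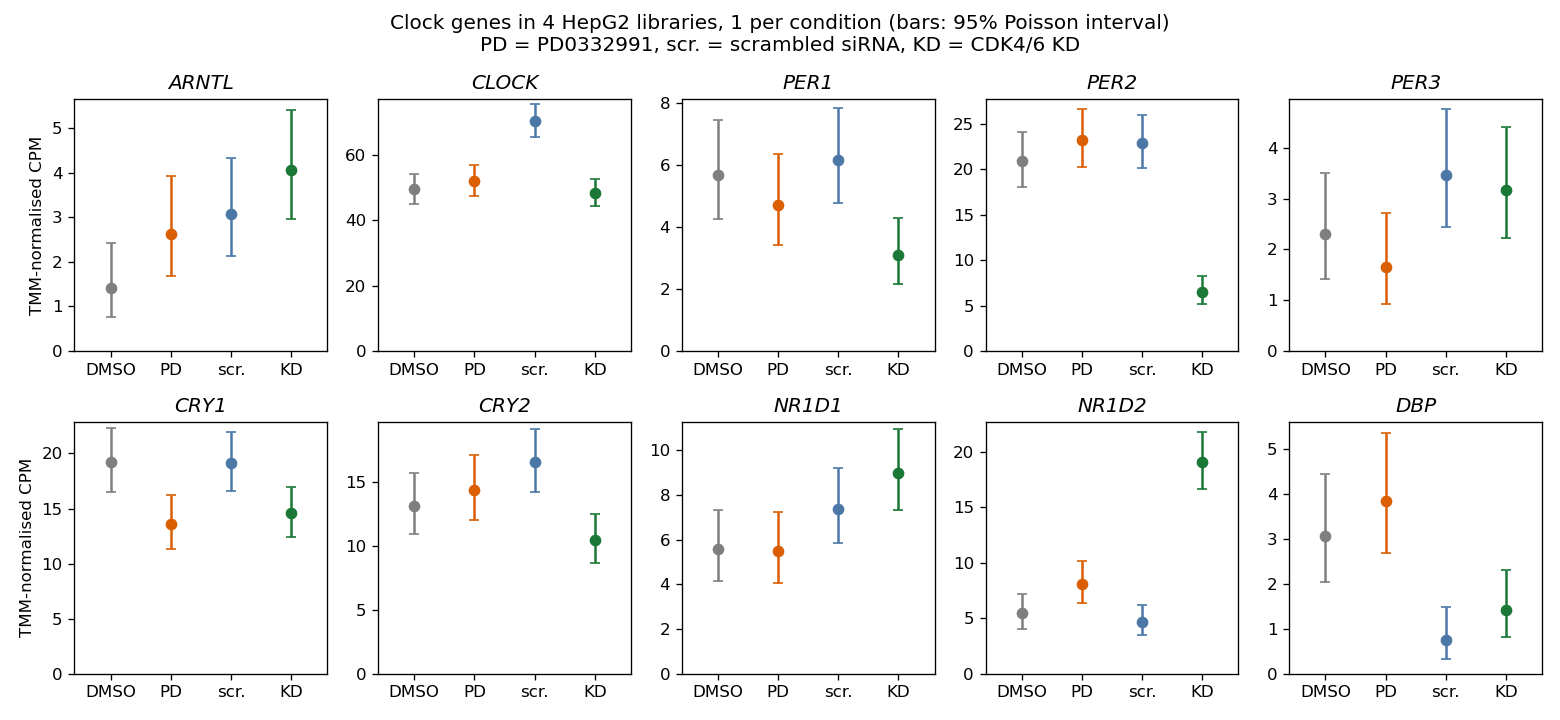
TMM-normalised CPM of each clock gene (vertical axis, from 0, own scale per panel) in the DMSO, PD0332991 (PD), scrambled siRNA (scr.) and CDK4/6 KD (KD) libraries, with 95% Poisson intervals. In *PER2* and *NR1D2* the CDK4/6 KD interval lies apart from the other 3, at 6.54 and 19.1 CPM.

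CDK4/6 KD was compared with scrambled siRNA to ask how the clock genes stood when both kinases were depleted. *NR1D2* was 4.05 times as high in CDK4/6 KD, and *PER2* was at 0.287 of its control level. *CLOCK*, *PER1*, *CRY1* and *CRY2* were lower by less than 2-fold with intervals under 1, and *ARNTL*, *PER3*, *NR1D1* and *DBP* had intervals that included 1. Thus 2 of the 10 genes passed 2-fold, 1 higher and 1 lower, beside 16.8% of the 13617 genes that reached 10 reads in one of the libraries, a share close to that of the members. Both also had the whole interval past 2-fold, which 6.55% of those genes had. The interval left out 1 for 6 of the 10 and for 61.9% of all genes compared. The median log2 fold change was -0.26 over the 10 genes and -0.0036 over all genes compared.

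*PER2*, a repressor of the CLOCK dimer, had 191 reads in DMSO, 212 in PD0332991, 245 in scrambled siRNA and 74 in CDK4/6 KD. These are 20.9, 23.3, 22.9 and 6.54 CPM. The CDK4/6 KD library was the low one, and the intervals of the other 3 libraries overlapped one another. The fold change was 0.287 against scrambled siRNA (95% interval 0.217 to 0.372) and 0.314 against DMSO (0.236 to 0.411).

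*NR1D2*, which encodes REV-ERB beta, had 50 reads in DMSO, 74 in PD0332991, 50 in scrambled siRNA and 216 in CDK4/6 KD. Its levels were 5.47, 8.13, 4.67 and 19.1 CPM, so that CDK4/6 KD was the high library, with an interval of 16.6 to 21.8 CPM apart from the others. The fold change was 4.05 against scrambled siRNA (95% interval 2.99 to 5.67) and 3.46 against DMSO (2.55 to 4.84). The control libraries themselves differed little in this gene (scrambled siRNA at 0.855 of DMSO, 0.565 to 1.29).

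The opposite differences of these genes were also read without any library size. There were 0.262 reads of *NR1D2* per read of *PER2* in DMSO, 0.349 in PD0332991, 0.204 in scrambled siRNA and 2.92 in CDK4/6 KD (95% interval 2.23 to 3.85). The order of the genes in reads was thus turned in CDK4/6 KD alone of the 4 libraries, since the highest upper bound elsewhere was 0.457, in PD0332991. The ratio was chosen after the values were seen, and its size compares libraries, not the abundance of the transcripts.

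**Figure D3:**
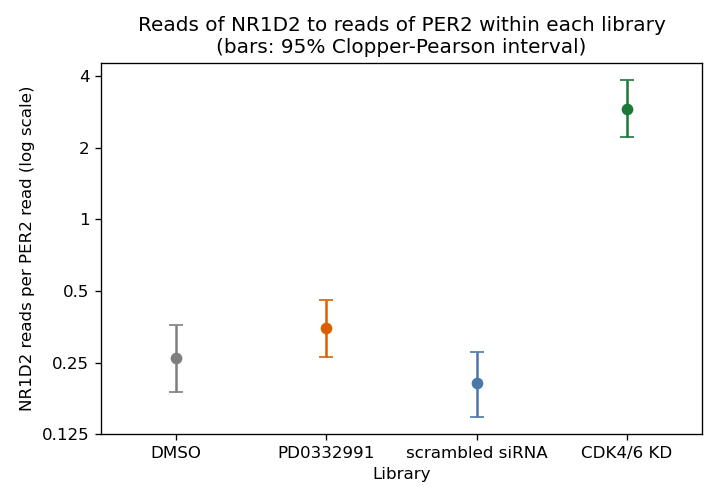
Reads of *NR1D2* per read of *PER2* in each library (log axis) with 95% Clopper-Pearson intervals. The DMSO, PD0332991 and scrambled siRNA libraries lie between 0.204 and 0.349, and CDK4/6 KD lies at 2.92.

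Of the other PER and CRY genes, only *PER3* had an interval in CDK4/6 KD that included 1, and the rest lay below it. *PER1*, which responds quickly to hormones and serum, had 52 reads in DMSO, 43 in PD0332991, 66 in scrambled siRNA and 35 in CDK4/6 KD. Its fold change in CDK4/6 KD was 0.505 (95% interval 0.323 to 0.766), just short of 2-fold, and 0.547 against DMSO. *PER3* rested on 21, 15, 37 and 36 reads in the same order, and its fold change of 0.921 had an interval of 0.565 to 1.5, so that a difference inside that span was not detectable at this depth.

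*CRY1* and *CRY2* encode the cryptochromes, the main blockers of the CLOCK dimer. *CRY1* had 176 reads in DMSO, 124 in PD0332991, 205 in scrambled siRNA and 165 in CDK4/6 KD, or 19.3, 13.6, 19.2 and 14.6 CPM. Both inhibited libraries lay below both controls, with fold changes of 0.761 in CDK4/6 KD (95% interval 0.616 to 0.939) and 0.708 after PD0332991 (0.557 to 0.895). *CRY2* had 120, 131, 177 and 118 reads. Its CDK4/6 KD level was below that of scrambled siRNA (fold change: 0.631, interval 0.495 to 0.800), but against DMSO the interval included 1 (fold change: 0.795, interval 0.610 to 1.03).

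On the activator side, *CLOCK* had 452 reads in DMSO, 473 in PD0332991, 752 in scrambled siRNA and 548 in CDK4/6 KD, which are 49.5, 51.9, 70.3 and 48.4 CPM. Here the scrambled siRNA library stood above the other 3, whose intervals overlapped. The fold change in CDK4/6 KD was 0.689 against scrambled siRNA (95% interval 0.616 to 0.770) and 0.979 against DMSO (0.862 to 1.11). *ARNTL*, its partner and the gene that the REV-ERB receptors repress, had only 13 reads in DMSO, 24 in PD0332991, 33 in scrambled siRNA and 46 in CDK4/6 KD. It was highest in CDK4/6 KD, the library in which *NR1D2* was also highest, but the fold change of 1.31 had an interval of 0.825 to 2.13. Against DMSO the fold change was 2.79 (1.52 to 5.76).

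*NR1D1*, which encodes REV-ERB alpha, had 51 reads in DMSO, 50 in PD0332991, 79 in scrambled siRNA and 102 in CDK4/6 KD. Its fold change in CDK4/6 KD was 1.22 (95% interval 0.901 to 1.66), lower than the 4.05 of its paralogue *NR1D2*, and the intervals of the pair did not overlap. Against DMSO it was 1.61 (1.14 to 2.31). In GENCODE 29 (GRCh38) the last 500 exonic bases of *NR1D1*, on the minus strand of chromosome 17 from 40092787 to 40100725, share 263 bases with *THRA* on the opposite strand, a stretch that bears on the counts if the libraries read transcript ends. *THRA*, the thyroid hormone receptor alpha gene, had 126, 251, 147 and 156 reads. The use of strand in the counting is not given in the sources used here, so reads of the pair cannot be told apart.

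*DBP* had 28 reads in DMSO, 35 in PD0332991, 8 in scrambled siRNA and 16 in CDK4/6 KD. Both transfected libraries lay below both of the drug arm. The fold change in CDK4/6 KD was 1.84 against scrambled siRNA (95% interval 0.763 to 5.10) and 0.470 against DMSO (0.233 to 0.883). Its direction thus depended on the control library. The summed fibroblast markers had the same order of libraries as *DBP*, and their part in its level was not tested. Its last 500 exonic bases share 473 with *SPHK2* on the opposite strand, whose reads ran from 107 to 126.

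**Figure D4:**
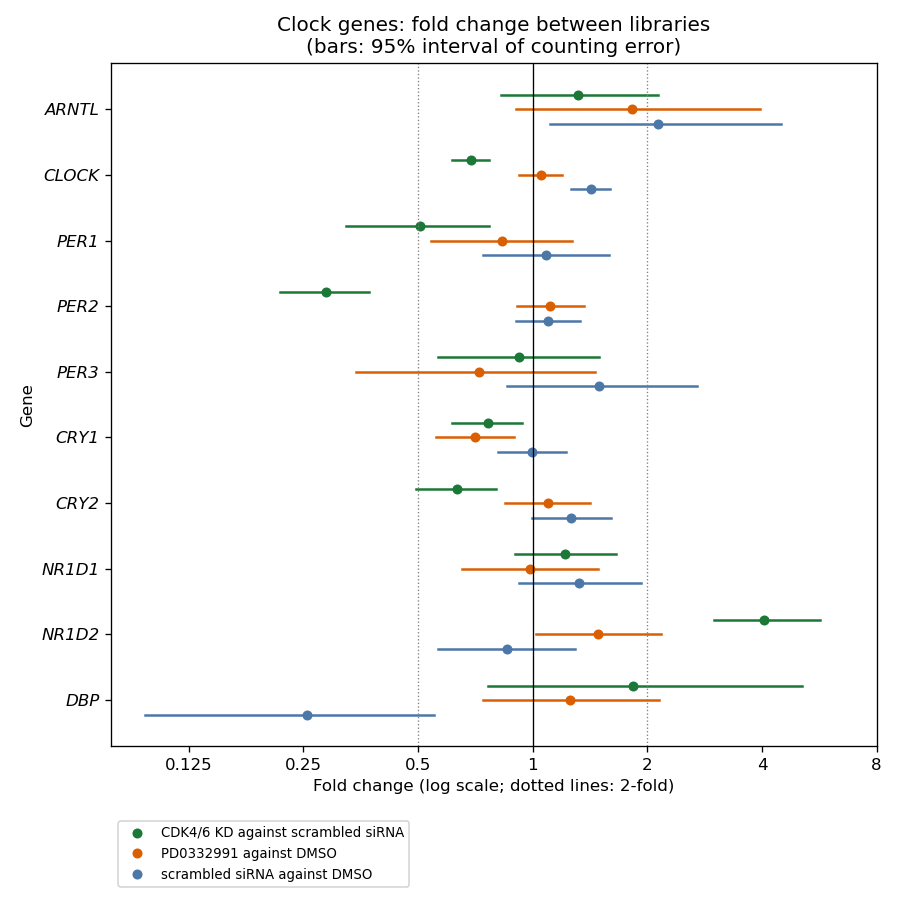
Fold change of each clock gene (log axis, dotted lines at 2-fold) in CDK4/6 KD against scrambled siRNA, PD0332991 against DMSO and scrambled siRNA against DMSO, with 95% intervals of counting error. *PER2* at 0.287 and *NR1D2* at 4.05 in CDK4/6 KD are the only points here whose whole interval lies past 2-fold.

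PD0332991 was compared with DMSO to ask the same of a drug that blocks the kinases without removing them. Of the 10 clock genes, 0 differed by 2-fold, beside 14.6% of the 13443 genes compared, and 0 had the whole interval past it, beside 5.07%. The interval left out 1 for 2 genes, *CRY1* at 0.708 and *NR1D2* at 1.48 (95% interval 1.02 to 2.17), where 56.7% of all genes had such an interval. The bounds still left room for differences in the genes with few reads, as for *ARNTL* (fold change: 1.82, interval 0.907 to 3.96) and *PER3* (fold change: 0.723, interval 0.344 to 1.46). *PER2* had a fold change of 1.11 (0.912 to 1.36), *CLOCK* 1.05 (0.921 to 1.20), *CRY2* 1.10 (0.849 to 1.42), *PER1* 0.831 (0.541 to 1.27), *DBP* 1.25 (0.741 to 2.14) and *NR1D1* 0.984 (0.653 to 1.48). The sign for *NR1D1* turned with upper quartile scaling, which gave 1.04. The median log2 fold change over the members was 0.10, against 0.018 for all genes compared.

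Set beside the siRNA arm, the intervals of 4 of the 10 genes did not overlap between both ways of inhibition, beside 42.3% of the 13099 genes compared in both arms, a share close to that of the members. The 4 were *PER2* (0.217 to 0.372 and 0.912 to 1.36), *NR1D2* (2.99 to 5.67 and 1.02 to 2.17), *CLOCK* (0.616 to 0.770 and 0.921 to 1.20) and *CRY2* (0.495 to 0.800 and 0.849 to 1.42). Whether the arms differ was not tested, and the drug and the siRNA were each read against another control library.

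All 7 proliferation markers, *MKI67*, *PCNA*, *TOP2A*, *CCNB1*, *CDK1*, *RRM2* and *MCM2*, were lower in each inhibited library with intervals under 1, and their summed level was 3984 CPM in DMSO, 497 in PD0332991, 2858 in scrambled siRNA and 1197 in CDK4/6 KD. The library with the lowest sum was PD0332991. *TOP2A*, the largest part of the sum, had 2615, 341, 1923 and 760 CPM in the same order. Any relation of these markers to the clock genes was not tested. In bulk RNA, fewer cells in a state and less RNA per cell cannot be told apart.

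The control libraries were compared with each other to show how far clock genes differed without CDK4/6 inhibition. *ARNTL* was higher with scrambled siRNA (fold change: 2.13, 95% interval 1.11 to 4.49) and *DBP* lower (fold change: 0.256, interval 0.096 to 0.549), which made 2 of 10 genes past 2-fold beside 11.9% of 13303 genes compared, 5.3% higher and 6.64% lower. Neither had its whole interval past 2-fold, beside 3.23% of genes. The interval left out 1 for those 2 genes and for *CLOCK* at 1.42 (1.26 to 1.60), 3 of 10, and for 56.3% of all genes. For *PER2* the controls differed by 1.10 (0.903 to 1.33). Against the other control library, 4 clock genes passed 2-fold in CDK4/6 KD (*ARNTL*, *PER2*, *NR1D2* and *DBP*, beside 16.2% of all genes) and 2 after PD0332991, *PER3* at 0.484 (0.243 to 0.889) and *DBP* at 4.88 (2.34 to 12.8), beside 18.8%. The comparison of the controls shares the scrambled siRNA library with the knockdown comparison and the DMSO library with the drug comparison.

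A list of 28 other genes of the clock pathway was examined in the same way. In CDK4/6 KD 25 of them passed the filter, of which 2 lay above and 3 below the 2-fold lines, beside 9.19% and 7.62% of all genes. After PD0332991 24 passed, with 1 higher and 3 lower, beside 7.49% and 7.07%. Their median log2 fold changes were 0.16 and -0.069.

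The list includes the paralogues of the activators. *ARNTL2*, which can replace *ARNTL* in the dimer, had 106 reads in DMSO, 23 in PD0332991, 131 in scrambled siRNA and 52 in CDK4/6 KD. Both inhibited libraries were low and both controls high, with fold changes of 0.378 in CDK4/6 KD (95% interval 0.267 to 0.521) and 0.221 after PD0332991 (0.132 to 0.344). *NPAS2*, which can replace *CLOCK*, had 310, 233, 347 and 292 reads. Its differences were in the same direction and smaller, at 0.796 (0.678 to 0.932) and 0.755 (0.634 to 0.897).

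Among repressors outside the PER and CRY families, *BHLHE40* (DEC1), which competes for E-boxes and responds to many signals, had 78 reads in DMSO, 90 in PD0332991, 200 in scrambled siRNA and 52 in CDK4/6 KD. The scrambled siRNA library was the high one. Its fold change of 0.248 in CDK4/6 KD (95% interval 0.178 to 0.335) became 0.541 against DMSO (0.371 to 0.774). *TIMELESS*, whose product also serves at replication forks, had 523, 172, 586 and 407 reads and was lower after PD0332991 (fold change: 0.331, interval 0.276 to 0.393). With both kinases depleted it was at 0.657 of its control (0.577 to 0.746).

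The ROR genes encode the activators that share sites with the REV-ERB receptors. *RORA* had 81 reads in DMSO, 129 in PD0332991, 197 in scrambled siRNA and 378 in CDK4/6 KD. Its fold changes were 1.81 in CDK4/6 KD (95% interval 1.52 to 2.17) and 1.59 after PD0332991 (1.20 to 2.14). Each inhibited library lay above its own control, and the scrambled siRNA library was itself 2.07 times as high as DMSO. Of the D-box factors related to *DBP*, *TEF* had 32 reads in DMSO, 87 in PD0332991, 35 in scrambled siRNA and, in the knockdown, 55. It was higher after PD0332991 (fold change: 2.70, interval 1.80 to 4.23). *HLF* had 2588 reads in DMSO, 2485 in PD0332991, 1354 in scrambled siRNA and, in the knockdown, 2233. It was lowest in the library in which *DBP* was also lowest.

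Of the 10 genes for kinases, a phosphatase and ubiquitin ligase parts that act on clock proteins, 8 lay within 2-fold in CDK4/6 KD. So did 11328 of all 13617 genes compared, a share close to that of the list. After PD0332991 all 9 that passed the filter lay within 2-fold, beside 11486 of all 13443 genes compared. These counts therefore do not set the list apart. *FBXL21*, which encodes a ubiquitin ligase subunit, had 6 reads in scrambled siRNA and, in the knockdown, 15, and its fold change of 2.25 had an interval of 0.866 to 7.43. The casein kinase gene *CSNK1D* had fold changes of 0.934 and 0.979 with intervals that included 1, and the signs turned with total counts for the first (1.00) and with upper quartile factors for the second (1.04). Among the 6 output genes *WEE1*, a kinase that holds back mitosis, had 224 reads in DMSO, 72 in PD0332991, 273 in scrambled siRNA and, in the knockdown, 304. It was lower after PD0332991 (fold change: 0.324, interval 0.244 to 0.422), and its fold change in CDK4/6 KD was 1.05 (0.891 to 1.24), a difference between the arms that was not tested.

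**Figure D5:**
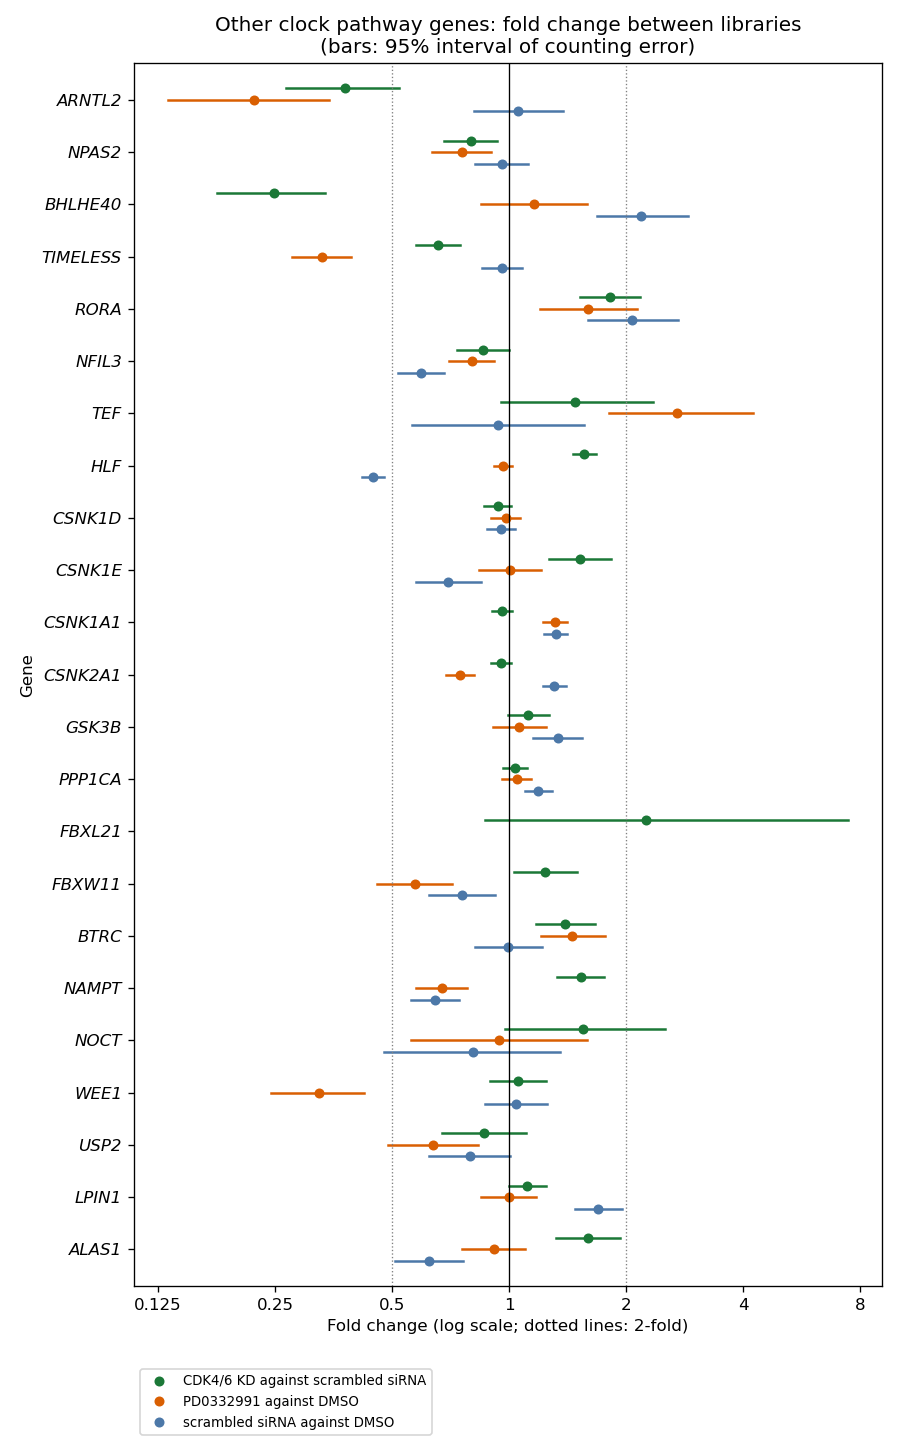
Fold change of other clock pathway genes that passed the filter in at least 1 comparison (log axis, dotted lines at 2-fold), with 95% intervals of counting error. *ARNTL2* lies under 0.5 in both inhibited libraries, and *TIMELESS* and *WEE1* lie at 0.331 and 0.324 after PD0332991.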

How the data were processed

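RNA from 4 HepG2 cultures was made into QuantSeq 3′ mRNA libraries from 500 ng total RNA and sequenced as single-end 75 base reads on a NextSeq 500. The kit name is that of the study's methods. The catalogue number in the labels could not be checked against it here, and counts from a kit that reads whole transcripts would depend on transcript length. The authors deposited unnormalized counts of reads under each gene symbol, 1 file per library. Per the labels, their processing notes name hg19, Bowtie2 and edgeR, without versions. The read counter and annotation are not given in the sources used here.

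Counts of 286 repeated symbols among 25737 entries were summed, which left 24462 genes. TMM factors came from edgeR 4.0.16 (R 4.3.3). Fold changes added 0.5 reads scaled to library size. A gene was compared where one of the libraries compared held 10 reads or more, and 2-fold was the threshold. Intervals at 95% were computed with scipy 1.17.1. No condition had a replicate, so the quasi-likelihood test of edgeR was not possible. The procedure was tested on simulated counts with Poisson error only, the error that the intervals assume. That test says nothing of variation between cultures or libraries.

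The members and lists were chosen with earlier results of these data known. Named were all members, pathway genes past 2-fold with an interval that left out 1, ARNTL2, NPAS2, the markers, genes overlapping a member and those with the most similar patterns. Other pathway genes (RORA, HLF, FBXL21, CSNK1D, NAMPT and FBXW11) were named after their values were seen, as was the ratio of NR1D2 to PER2 reads. Alternatives were DESeq2 1.42.0 size factors, total counts, upper quartile factors, a pseudocount of 5 reads, a minimum of 50 reads or none, a 1.5-fold threshold, whole intervals past 2-fold, the other control library, and the most counted entry of repeated symbols. Some pathway genes counted in the lists are not reported by name here. Positions come from GENCODE 29 and promoters from RefSeq, both on GRCh38, and no reads were placed by position here.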

Additional observations from a re-analysis of the deposited data

Results flagged for a closer look

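Of the clock genes and the other pathway genes, *NAMPT* and *FBXW11* had intervals on opposite sides of 1 in the knockdown and drug comparisons. The interval left out 1 for 61.9% of all genes in the knockdown comparison and for 56.7% in the drug comparison. The share of all genes with intervals on opposite sides is not given here, so the flag does not set these genes apart. *NAMPT*, the enzyme that limits NAD salvage, had 448 reads in DMSO, 299 in PD0332991, 338 in scrambled siRNA and 546 in CDK4/6 KD, with a fold change of 1.53 in CDK4/6 KD (95% interval 1.33 to 1.75) but 0.670 after PD0332991 (0.577 to 0.777). With the control libraries exchanged the fold changes were 0.984 and 1.04, both with intervals that included 1, and *NAMPT* was at 0.645 of its DMSO level in scrambled siRNA. *FBXW11*, a ubiquitin ligase subunit that acts on PER proteins, had 226, 129, 200 and 262 reads, with fold changes of 1.24 and 0.574, or 0.936 and 0.759 with the controls exchanged. The difference between the arms was not tested.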

How the results depend on the processing

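*PER2* and *NR1D2* were past 2-fold in CDK4/6 KD in the same direction under DESeq2's size factors, total counts and upper quartile factors. No paired analysis was possible because each condition had 1 library, which also leaves no replicate to leave out. Total counts moved the median of all genes in CDK4/6 KD by 0.10 (log2). The number of clock genes past the threshold in CDK4/6 KD went from 2 to 5 at 1.5-fold and to 4 against DMSO. After PD0332991 it went from 0 to 1 at 1.5-fold and to 2 against scrambled siRNA. Between the controls it went from 2 to 1 with 5 pseudocount reads, and to 0 with a filter of 50 reads or with whole intervals. For the other pathway genes in CDK4/6 KD it went from 5 to 3 with 5 pseudocount reads, with a filter of 50 reads or against DMSO, to 8 with no filter, to 12 at 1.5-fold and to 1 with whole intervals. At 1.5-fold it went from 4 to 9 after PD0332991 and between the controls, where whole intervals left 1. The share of all genes at 1.5-fold, with 5 pseudocount reads, with a filter of 50 reads or with no filter is not given here. Those counts therefore have no background to be read against. Fewer genes tested or another threshold makes these counts differ by construction, and the cause of the differences between control libraries was not tested. Exchanging the controls moved the log2 fold changes of *ARNTL*, *CLOCK* and *DBP* outside their intervals in both arms. Restricting the background to genes with mean reads in the members' range, added after the data were seen, gave 14.2% past 2-fold in CDK4/6 KD and 13% after PD0332991. With close to 50 reads or fewer in some library for *ARNTL*, *PER1*, *PER3*, *NR1D1*, *NR1D2* and *DBP*, depth limits what can be seen of these genes.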

Other observations

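The genes most like *NR1D2* over the 4 libraries, by the root mean square difference of centred log2 CPM among 9793 genes, were *FGA*, which encodes the fibrinogen alpha chain (0.10), *DUSP8* (0.14) and *CLDN19* (0.16). *FGA* had 286 CPM in DMSO, 451 in PD0332991, 267 in scrambled siRNA and 905 in CDK4/6 KD. Those most like *PER2* were *PLOD3*, a collagen lysyl hydroxylase gene (0.085), *COPZ1* (0.12) and *MGRN1* (0.13), and *PLOD3* had 84.4, 80.4, 89.1 and 24.1 CPM. Of the members with at least 50 reads in some library, *PER1* had the next widest range, and the genes nearest to it among 11378 were *FAM133CP* (0.014), a pseudogene whose count is less certain, *MTAP* (0.021) and *PEX19* (0.024). Likeness over 4 libraries says nothing of shared control.

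Reads of *NR1D2* per read of *NR1D1* were 0.980 in DMSO, 1.48 in PD0332991, 0.633 in scrambled siRNA and 2.12 in the CDK4/6 KD library. The 95% interval of the last, 1.67 to 2.71, overlapped that in PD0332991, 1.02 to 2.16. Reads of *CRY1* per read of *CRY2* lay between 0.947 and 1.47 in the 4 libraries.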
